A study of Rattus norvegicus with 6 samples.

Results

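Genes that mark the epicardium and mesothelium were followed in hearts of Dahl S rats and of S.LEW(10)x12x2x3x5 congenic rats. The 10 genes were taken by name: Aldh1a2, Krt19, Krt8, Krt18, Msln, Upk3b, Upk1b, Wt1, Tbx18 and Tcf21. Every probe set annotated to exactly 1 of them was used. This gave 10 probe sets for 9 of the genes, out of 31042 probe sets and 14217 genes measured, with 2 probe sets for Wt1 and none naming Upk3b, which was not analysed here. Dahl S rats are inbred and develop hypertension when fed salt. The congenic rat carries a Lewis segment of chromosome 10 on the Dahl S background. By design both groups share the Dahl S genome elsewhere, which was not checked here. The animals were males of 1 birth date. They were weaned at 30 days, ate a low-salt diet (0.3%) and shared cages, each holding a rat of either strain, until their hearts were taken at 53 days of age. RNA from 2 animals was pooled for each array and 3 arrays were run per strain, so the spread between arrays is a spread between pools. The values are log2 expression per probe set on the Affymetrix Rat Expression Array 230 2.0 chip, summarised by the authors with RMA, a method that corrects background, normalizes between arrays and combines the probes of a set.

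The epicardium is the mesothelial sheet that covers the heart. Its cells arise from the proepicardium, carry the simple-epithelial keratins and surface proteins of mesothelium, and make retinoic acid through Aldh1a2. During development many of them leave the sheet and become fibroblasts and mural cells of the coronary vessels, a step in which Wt1, Tbx18 and Tcf21 take part. In the adult heart the epicardium is a thin layer, and the same keratins also occur in other epithelia. In whole-heart RNA a lower level can come from fewer cells of a type or from less RNA per cell, and these cannot be told apart here.

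Promoters are shown for 3 genes, Krt8 and Krt18 because they put the 6 arrays in an identical order, and Aldh1a2 because it had the smallest p of the strain comparison among these genes. They come from the RefSeq table of the rat assembly GRCr8, which held 8 of the 10 genes (not Krt19 or Msln). Each line gives the 250 bases before the annotated start, 5′ to 3′ on the gene's strand. Capitals mark matches, on either strand, to any of 4 promoter motifs. The first, the GC box, was searched as GGGCGG. The TATA box was searched as TATAAA. The CCAAT box was searched by its own name as letters. The E-box was searched as the palindrome CAGCTG. Krt8 lies at chr7:135010340-135010589 (minus strand), Krt18 at chr7:135035918-135036167 (plus strand) and Aldh1a2 at chr8:80758391-80758640 (plus strand).
Krt8: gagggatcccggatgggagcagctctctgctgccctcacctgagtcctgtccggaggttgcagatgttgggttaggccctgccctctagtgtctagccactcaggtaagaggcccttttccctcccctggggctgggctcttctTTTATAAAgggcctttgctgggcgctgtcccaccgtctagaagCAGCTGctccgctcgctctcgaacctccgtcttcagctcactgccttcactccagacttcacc
Krt18: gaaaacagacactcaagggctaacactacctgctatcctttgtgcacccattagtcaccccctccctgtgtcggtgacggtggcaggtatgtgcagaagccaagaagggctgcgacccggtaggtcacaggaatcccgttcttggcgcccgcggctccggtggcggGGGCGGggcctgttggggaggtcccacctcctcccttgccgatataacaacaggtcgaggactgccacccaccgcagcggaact
Aldh1a2: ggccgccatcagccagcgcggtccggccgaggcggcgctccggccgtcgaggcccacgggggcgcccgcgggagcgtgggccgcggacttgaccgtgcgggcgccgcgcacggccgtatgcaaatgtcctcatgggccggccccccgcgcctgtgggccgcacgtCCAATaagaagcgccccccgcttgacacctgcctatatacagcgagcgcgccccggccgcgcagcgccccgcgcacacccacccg

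Krt8 held 2 overlapping TATA-box matches on opposite strands, which together span bases -106 to -99 from the start, and an E-box at -63 to -58. Krt18, its neighbour in the genome with 1 gene model between them, held a GC box at -84 to -79. The 4 motifs were not shared between the 2 keratin promoters. A CCAAT box stood at -85 to -81 in Aldh1a2, with matches starting at -84 in Tbx18 and at -78 in Upk1b. Upk3b, Wt1 and Tcf21 had no match in this window. The search window held the 250 bases before the start. Over 33469 such windows, 30.5% held the GC box, 12.9% the TATA box, 34.0% the CCAAT box and 12% the E-box. The matches describe these letters and say nothing of factor binding.

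The arrays were alike over all probe sets, with a correlation of 0.993 to 0.998 between any pair, and the cardiomyocyte genes Myh6 (14.79 to 14.85) and Tnnt2 (14.63 to 14.71) were among the brightest on every array. Hybridization controls were brighter on Dahl S array 3 (11.54) and congenic array 2 (11.55) than on the other 4 arrays (10.67 to 10.83). Dahl S array 3 and congenic array 1 carried raised lymphocyte and thymus markers, with a mean over 9 markers of 1.25 and 0.61 log2 units above the 6-array average, against -0.54 to -0.41 on the other 4 arrays.

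Aldh1a2, which makes retinoic acid from retinaldehyde and is a standard marker of epicardium, read 7.14, 6.99 and 7.09 on Dahl S arrays 1 to 3 and 7.35, 7.30 and 7.36 on congenic arrays 1 to 3. All congenic arrays were above all Dahl S arrays. Such a separation was seen in 5.83% of all probe sets, and the opposite one in 6.9%. The strain means were 7.07 ± 0.08 (SD, n = 3) and 7.34 ± 0.03 (SD, n = 3), and congenic minus Dahl S was 0.26 log2 units (SE 0.06, 95% interval 0.12 to 0.40), or 1.20-fold. The unadjusted limma p was 0.00282, the 114th smallest of all probe sets, and the Benjamini-Hochberg adjusted p was 0.721, so the difference did not pass the threshold of 0.05. An exact permutation test of the 6 arrays gave p = 0.1, two-sided, the smallest that 3 against 3 arrays allow. Over 16 other settings, which included leaving out each array in turn, the difference lay between 0.21 and 0.30.

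Krt19, a keratin of simple epithelia and of mesothelium, read 6.16, 6.27 and 5.76 in Dahl S and 6.44, 6.54 and 6.45 in congenic hearts. All congenic arrays were above all Dahl S arrays, as in 5.83% of all probe sets, and Dahl S array 3 was far below the others. The means were 6.06 ± 0.27 (SD, n = 3) and 6.48 ± 0.06 (SD, n = 3). The difference was 0.41 log2 units (SE 0.12, 95% interval 0.13 to 0.70), 1.33-fold, with an unadjusted limma p of 0.0109, an adjusted p of 0.731 and an exact permutation p of 0.1. It was 0.26 without Dahl S array 3, 0.23 within the 4 arrays of low hybridization-control signal and 0.78 between the 2 of high signal. Krt19 lies on chromosome 10, as do Msln, Krt10, Krt12 to Krt15, Krt17, Krt20 and Krt23 to Krt25. Of these other keratins only Krt10 had an unadjusted limma p under 0.05, and it was lower in congenic hearts. Chromosome 10 is the chromosome of the Lewis segment, whose extent was not given in the sources used here.

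Msln encodes mesothelin, a surface protein of mesothelial cells. Its values were 7.48, 7.46 and 6.99 in Dahl S and 7.41, 7.59 and 7.65 in congenic hearts, so the groups overlapped and the lowest value was again Dahl S array 3. The difference of 0.24 log2 units (SE 0.14, 95% interval -0.07 to 0.56) had an adjusted limma p of 0.797. Without Dahl S array 3 it was 0.08. Upk1b, a tetraspanin of the urothelial plaque that mesothelial cells also make, read 5.69, 5.90 and 5.25 in Dahl S and 5.69, 5.80 and 5.75 in congenic hearts. The difference was 0.13 (SE 0.15, 95% interval -0.21 to 0.48, adjusted p = 0.891), and its sign turned to -0.05 without Dahl S array 3. For Msln and Upk1b the strain difference was therefore within the spread of the Dahl S arrays. Krt19 differed from these, as its congenic values (6.44 to 6.54) all lay above the Dahl S values (5.76 to 6.27). The size of its difference, 0.41, still depended on the low value of Dahl S array 3.

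**Figure D1:**
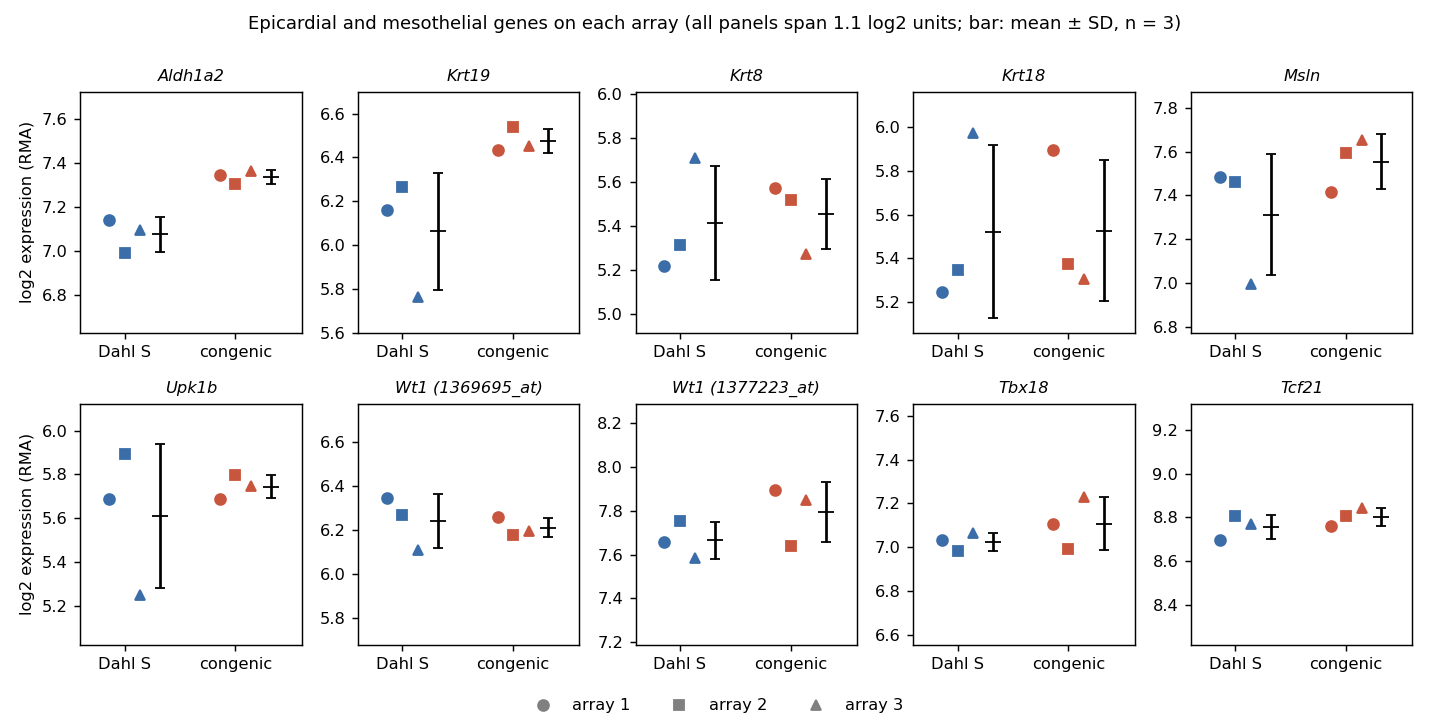
Log2 expression of each probe set of the epicardial and mesothelial genes on the 6 arrays, in blue for Dahl S and red for congenic, with the mean ± SD (n = 3) of each strain as a bar. Aldh1a2 and Krt19 are the 2 genes whose congenic arrays all lie above the Dahl S arrays, as in 5.83% of all probe sets.

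Krt8 and Krt18 form the paired keratin filaments of simple epithelia. Krt8 read 5.22, 5.31 and 5.71 in Dahl S and 5.57, 5.52 and 5.27 in congenic hearts. Krt18 read 5.25, 5.35 and 5.97 in Dahl S and 5.90, 5.38 and 5.31 in congenic hearts. Both genes ranked the arrays identically, from Dahl S 1 through congenic 3, Dahl S 2, congenic 2 and congenic 1 up to Dahl S 3. The strain difference was 0.04 for Krt8 (SE 0.14, 95% interval -0.28 to 0.36) and 0.0038 for Krt18 (SE 0.22, 95% interval -0.50 to 0.51). The adjusted limma p was 0.971 and 0.998. Both signs turned when 1 array was left out: Krt8 was at -0.06 when Dahl S array 1 was left out and 0.19 when the third was, and Krt18 at -0.18 without congenic array 1 and 0.23 without Dahl S array 3. The within-strain spread of Krt18 was at the 99.1th percentile of all probe sets, while that of Aldh1a2 was at the 22.3rd.

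The high arrays of Krt18 were the 2 arrays with raised lymphocyte and thymus markers. Cd3g, a T cell receptor subunit, read 9.12 on the third Dahl S array and 9.05 on the first congenic array, while the other 4 lay between 6.37 and 6.64. Tbata, known from thymus epithelium, read 6.61 and 6.22 on the same arrays and 4.55 to 4.67 elsewhere. Dahl S array 3 and congenic array 1 were the highest pair for 7 of the 9 lymphocyte and thymus markers, for 6.4% of all probe sets, and for Krt8 and Krt18. The summed linear signal of the list was 2563 and 1799 on these arrays and 666 to 717 on the other 4. No defining marker of the list was at 0, since RMA values have no zero, and 5 of the 9 were dimmer than the median probe set. The part of these markers in the keratin values was not tested. Without both arrays the limma difference was 0.13 for Krt8 and 0.04 for Krt18, and it was 0.28 for Krt19, 0.15 for Msln and -0.02 for Upk1b. With the mean of the 9 markers as a covariate, it was 0.0862 for Krt8, 0.085 for Krt18 and 0.0855 for Upk1b. In that fit Krt19 was at 0.37 and Msln at 0.19, and the adjusted limma p-values of these genes ran from 0.741 to 0.889.

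**Figure D2:**
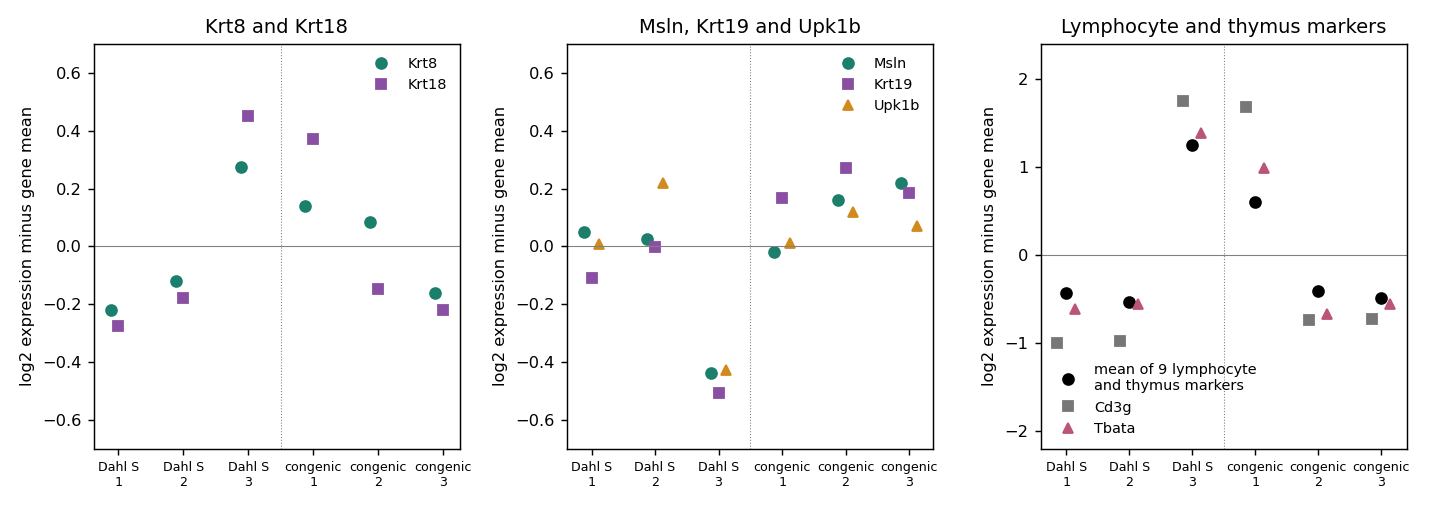
Log2 expression minus each gene's mean over the 6 arrays for Krt8 and Krt18 (left), Msln, Krt19 and Upk1b (middle) and lymphocyte and thymus markers (right). Dahl S array 3 is highest for both keratins on the left and lowest for the 3 genes in the middle, and the markers on the right are high on Dahl S array 3 and congenic array 1.

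None of the 3 transcription factors passed the adjusted limma threshold or separated the strains. Wt1, which keeps epicardial cells able to leave the sheet, was read by 2 probe sets. The brighter (1377223_at) gave 7.66, 7.75 and 7.58 in Dahl S and 7.90, 7.64 and 7.85 in congenic hearts, a difference of 0.13 (SE 0.08, 95% interval -0.06 to 0.32) with an adjusted p = 0.816 by limma. It was 0.21 without congenic array 2, 0.08 without congenic array 1 and 0.04 without Dahl S array 3 and congenic array 1, and no adjusted p passed with 1 array left out (0.648 to 0.993). The dimmer (1369695_at) gave 6.35, 6.27 and 6.11 against 6.26, 6.18 and 6.20, a difference of -0.03 (SE 0.07). The 2 probe sets therefore did not share a sign. Tbx18, a T-box factor of the proepicardium, read 7.03, 6.98 and 7.06 against 7.10, 6.99 and 7.23, a difference of 0.08 (SE 0.07, adjusted p = 0.863), which was 0.02 without congenic array 3 and 0.14 without congenic array 2. Tcf21, a basic helix-loop-helix factor of epicardium that resident fibroblasts also express, read 8.70, 8.81 and 8.77 against 8.76, 8.81 and 8.84, a difference of 0.05 (SE 0.06, adjusted p = 0.910), which was 0.02 when Dahl S array 1 was left out and 0.07 when the second was.

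**Figure D3:**
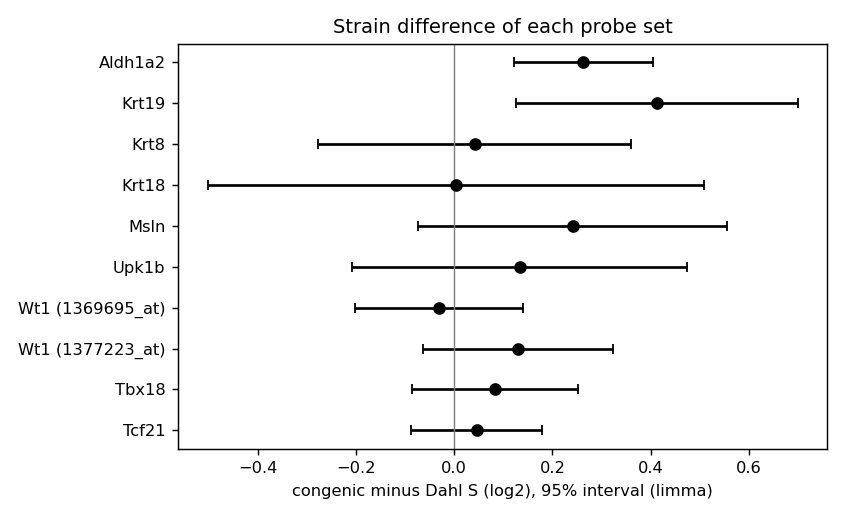
Congenic minus Dahl S difference in log2 expression for each probe set, with the 95% limma interval as a bar. The intervals of Aldh1a2 and Krt19 lie above 0, and those of the other 8 probe sets include it.

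Across the list, 0 of the 9 genes passed the adjusted limma threshold, which 0.0354% of all probe sets did (0.0193% higher and 0.0161% lower in congenic hearts). At an unadjusted limma p under 0.05, 2 of 9 were higher in congenic hearts and 0 were lower, beside 3.57% and 3.1% of all probe sets (6.67% in either direction). The difference was above 0 for 9 of 9 genes with the brightest probe set of each, and for 9 of 10 probe sets, beside 50.8% of all probe sets. The median difference was 0.13, and -0.01 over all 14217 genes. The genes share the arrays they were read on, so these counts are not independent. Leaving out 1 array at a time or changing the processing left between 7 and 9 genes above 0.

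Co-variation over the 6 arrays was computed for 28 pairs of 8 genes. Krt18 was left out because 4 of its arrays lie low and 2 high with a wide gap between, and no pooled relation was computed for such clusters. Msln, Krt19 and Upk1b, with 1 array apart from the other 5, were kept. Pearson's r ran from -0.70 to 0.90, was above 0 for 22 pairs and below for 6, and after Benjamini-Hochberg adjustment over the 28 pairs 0 passed. Krt19 and Msln had r = 0.90 (exact permutation p = 0.0389, adjusted 0.574) and Spearman's rho = 0.71 (exact p = 0.136, adjusted 0.817). Without Dahl S arrays 1 and 3, the 2 farthest from the median of Krt19, r was 0.54. Msln and Upk1b had r = 0.88 (exact p = 0.0708, adjusted 0.574) and rho = 0.49 (exact p = 0.356, adjusted 0.830), and r was 0.24 without Dahl S array 3 and congenic array 3. Krt19 and Upk1b had r = 0.83 (exact p = 0.0819, adjusted 0.574) and rho = 0.66 (exact p = 0.175, adjusted 0.817), and r was -0.61 without Dahl S arrays 1 and 3. Without Dahl S array 3 alone these 3 correlations were 0.50, 0.09 and 0.03, so the relations rest on that array. Krt8 and Msln had r = -0.70 (exact p = 0.075, adjusted 0.574) and rho = -0.71 (exact p = 0.136, adjusted 0.817), and r was -0.45 without Dahl S arrays 1 and 3 and -0.24 without Dahl S array 3 alone.

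Further epicardial and mesothelial genes were read as a list of 30, of which 26 had a probe set. At an unadjusted p under 0.05, 0 were higher and 0 lower, 18 had a difference above 0 and 8 below, and the median was 0.03. The 3 with the smallest p were Dmkn at 0.19, the zinc-finger gene Bnc2 at -0.22 and the secreted guidance factor Sema3d at 0.55, with adjusted limma p-values of 0.747, 0.747 and 0.760. The count at the unadjusted threshold ran from 1 to 4 when single arrays were left out. Sema3d read 5.95, 5.59 and 5.56 in Dahl S and 5.97, 5.90 and 6.89 in congenic hearts, so congenic array 3 stood far above the rest. Of 20 retinoic acid pathway genes measured from 22 listed, 1 was higher and 1 lower at that threshold, with a median of 0.01. These were Cyp26b1, which degrades retinoic acid (0.45, adjusted p = 0.738), and Rxrg, a retinoid receptor (-0.18, adjusted p = 0.736), while the retinol dehydrogenase gene Rdh10 stood at -0.14 (adjusted p = 0.800). The count of 2 ran from 1 to 4 with 1 array left out, and it was 4 without Dahl S array 1. None was higher without Dahl S array 2, congenic array 1 or congenic array 2, so that Cyp26b1 was not past the threshold there. Without congenic array 3 none was lower, so that Rxrg was not past the threshold there. Rxrg read 10.50, 10.37 and 10.37 in Dahl S and 10.25, 10.24 and 10.20 in congenic hearts, all below the Dahl S arrays. This separation was seen in 6.9% of all probe sets.

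Other keratins numbered 15 measured of 20, with 1 below 0 at the unadjusted threshold (Krt10, -0.29, adjusted p = 0.729) and a median of -0.02, and 14 of the 15 were dimmer than the median probe set. Other uroplakins and tight-junction genes numbered 10 of 12, with 5 above 0 and 5 below (median 0.01). T-box and proepicardial factors numbered 12 of 13, with 8 above 0 and 4 below (median 0.05), Hand2 having the smallest p (-0.14, adjusted p = 0.760). Of 15 genes of the step from epicardium to mesenchyme, 11 were above 0 and 4 below (median 0.06), and Cdh2, which encodes N-cadherin, was the 1 gene past the unadjusted threshold (-0.17, adjusted p = 0.736), while Vim was at 0.09. Without Dahl S array 2, congenic array 1 or congenic array 3 the count was 0, so that Cdh2 was not past the threshold, and without Dahl S array 3 it was 3, of which 2 were higher. On all congenic arrays Cdh2 was below, and Vim above, every Dahl S array. Such separations were seen in 6.9% and 5.83% of all probe sets, and the unadjusted limma p of Vim was 0.165.

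Fibroblasts derive in part from the epicardium. Of their markers 14 of 14 were above 0, the lowest being Mfap5 at 0.0001, with a median of 0.15. At an unadjusted limma p under 0.05, 3 were higher (Col1a2 0.39, Col1a1 0.24, Pi16 0.18). Over all 14217 genes, 6640 were above 0, and 494 were higher and 505 lower at that threshold. The fibroblast count was 8 without Dahl S array 3, 7 without congenic array 1 and 2 without any of the other 4. With quantile normalization it was 7, all higher. Macrophage markers had a median of 0.19 with 5 of 12 at that threshold, among them Adgre1 at 0.40, and the count was 10 without Dahl S array 3 and 3 to 5 without any other array. Erythroid markers had a median of 0.21 (7 of 7 above 0), lung and airway markers 0.10, smooth muscle and pericyte markers 0.08 and Schwann cell and nerve markers 0.05. Endothelial markers had 0.03, cardiomyocyte markers -0.02, adipocyte markers -0.11 and lymphocyte and thymus markers -0.20. At the unadjusted threshold 3 of 9 Schwann cell and nerve, 2 of 7 erythroid and 1 of 10 endothelial markers were higher and 0 lower. Of 11 adipocyte markers 1 was higher and 1 lower. With 1 array left out, the Schwann cell and nerve count was 1 to 2 and the erythroid count 1 to 6. Several of these medians shifted or turned sign when 1 array was left out. Without Dahl S array 3 the adipocyte median was 0.17 and the lymphocyte and thymus median 0.39, and the latter was -0.61 without congenic array 1. Without congenic array 3 the 2 medians were 0.0275 and 0.16, and the lymphocyte and thymus median was 0.031 without congenic array 2. The lung and airway median was 0.0083 and the Schwann cell and nerve median 0.013 without congenic array 2, and the smooth muscle and pericyte median was 0.0049 without Dahl S array 2. The medians of the retinoic acid genes (-0.028), the other uroplakins and tight-junction genes (-0.023) and the other keratins (0.027) turned sign without Dahl S array 1. So did that of the retinoic acid genes without congenic array 2 (-0.0097) and that of the other keratins without congenic array 3 (0.036). The uroplakin and tight-junction median turned without congenic array 1 (-0.0158) and without congenic array 2 (-0.0164). None of these lists held a gene past the adjusted limma threshold. The part of shifts in cell makeup in the values of Aldh1a2 and Krt19 was not tested.

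**Figure D4:**
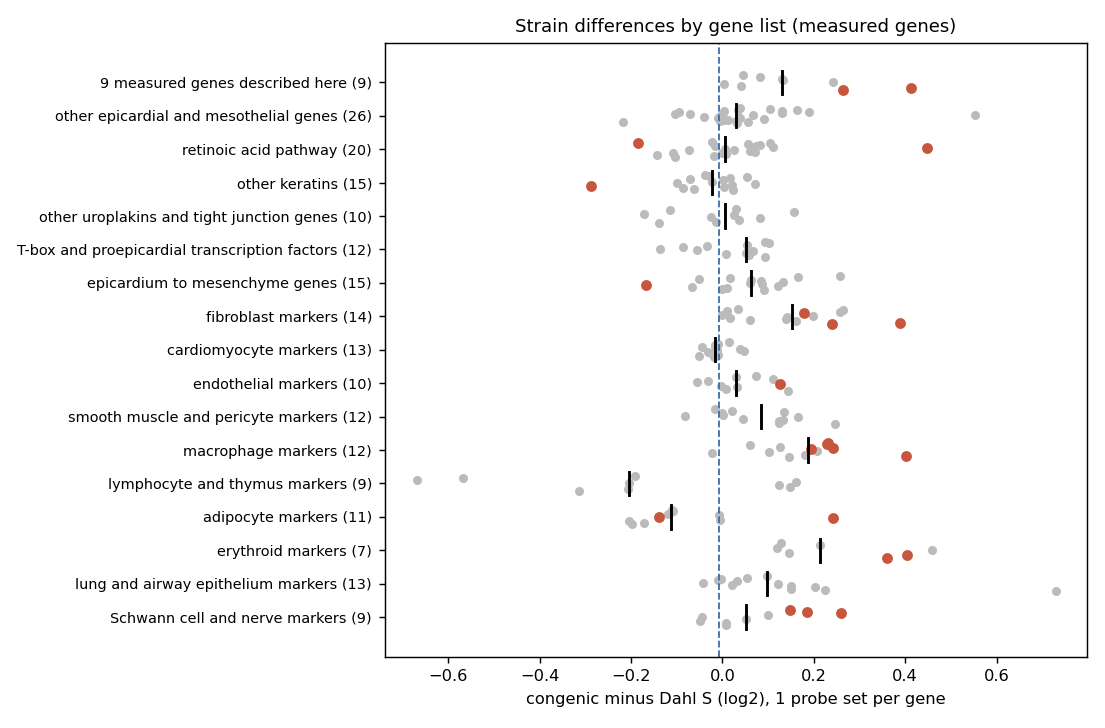
Congenic minus Dahl S difference in log2 expression for the genes of each list, with a point per gene (red where the unadjusted limma p was under 0.05), a bar at each list's median and a dashed line at the median of all genes. The epicardial and mesothelial genes described here have a median of 0.13, fibroblast markers 0.15 and cardiomyocyte markers -0.02.

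Among 1226 candidate probe sets brighter than the median and with an SD of at least 0.15 over the arrays, the 5 most like Krt19 were Lyl1 (r = 0.97), Bst2 (0.94), Myh7 (0.93), Gckr (0.92) and Tcp11 (0.91). The 5 most like Aldh1a2 were Inha (0.98), Fam98a (0.96), Mbd2 (0.95), Isg15 (0.94) and C18h18orf54 (0.93). These correlations are over 6 arrays that include the strain difference, with no test. Mbd2 (1.40 log2 units higher in congenic hearts) and C18h18orf54 (1.54 higher) lie on chromosome 18. They ranked 1 and 2 by limma p over all probe sets.

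**Figure D5:**
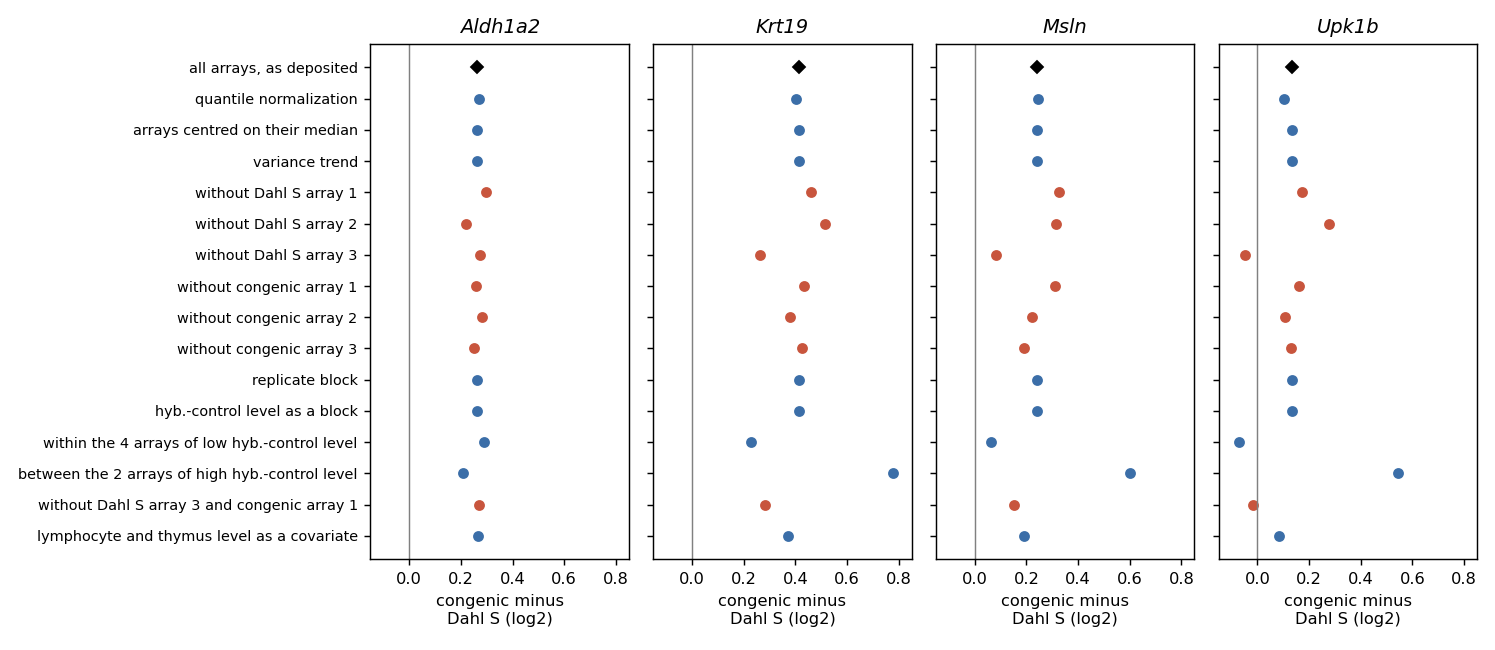
Congenic minus Dahl S difference in log2 expression of Aldh1a2, Krt19, Msln and Upk1b with all arrays as deposited (black) and under other settings (coloured). Red marks the settings named as without an array. Blue marks the rest, among them the arrays of low and of high hybridization-control signal taken alone. Aldh1a2 stays between 0.21 and 0.30. Krt19 stays between 0.23 (low signal alone) and 0.78 (high signal alone).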

How the data were processed

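RNA from rat hearts was measured on 6 arrays, 3 for each of 2 strains. The authors deposited log2 expression values made with RMA, per the submitters' processing notes; the RMA version was not given in the sources used here. From 31099 probe sets, 57 controls were left out and 31042 tested. Of these, 20826 named 1 gene, 436 several and 9780 none, and symbols were updated through a RefSeq table of GRCr8. Congenic and Dahl S arrays entered a linear model of the deposited log2 values (limma 3.58.1, lmFit with eBayes, under R 4.3.3), with Benjamini-Hochberg adjustment over all probe sets and a threshold of 0.05. The fit was checked on simulated data. Where a gene had several probe sets, the brightest stood for it in list counts. The named genes were all members, the called genes and up to 3 smallest p of each list, the 5 genes most like Krt19 and Aldh1a2, and Myh6 and Tnnt2 as a check of the tissue; Cd3g, Tbata and the genes of the closing section were chosen after their values were seen. Exact permutation tests were two-sided. Alternatives were quantile normalization, array centring, a variance trend, a filter on bright probe sets, left-out arrays, and blocks for replicate number and hybridization-control signal. In the correlations, arrays counted as clusters where the widest gap exceeded 50% of the range with at least 2 arrays on each side. The members and lists were chosen with earlier results of these data known. The number of arrays limits the precision, and the p-values measure only the spread between pools.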

Additional observations from a re-analysis of the deposited data

How the results depend on the processing

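Of 155 member differences under other settings 15 turned sign, and 0 of 145 adjusted p-values passed the threshold. Leaving out 1 array at a time gave -0.057 to 0.19 for Krt8, -0.18 to 0.23 for Krt18, -0.046 to 0.28 for Upk1b and -0.097 to 0.023 for Wt1 (1369695_at). Between the 2 arrays of high hybridization-control signal the difference was -0.19 for Krt8, -0.60 for Krt18, 0.069 for Wt1 (1369695_at) and -0.073 for Tbx18. Within the 4 of low signal Upk1b was at -0.072, without Dahl S array 3 and congenic array 1 it was at -0.019, and quantile normalization gave -0.0099 for Krt18. The cause of these turns was not tested.

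Limma's count of calls over all probe sets was 11, 16 with a variance trend, 9 with quantile normalization or the filter on bright probe sets, 5 to 6 without 1 array, 5 with the hybridization block, 2 within the 4 arrays of low signal, 3 without Dahl S array 3 and congenic array 1, and 7 with the lymphocyte score as a covariate. The last 2 settings were chosen after seeing the data. With the replicate number as a replicate block it was 5. Same-numbered arrays had correlations of -0.07, -0.06 and -0.18 in their deviations from the strain means. Those of differently numbered arrays ran from -0.09 to 0.16. With 3 arrays per strain these values cannot show whether same-numbered arrays shared more than a number. The filter on bright probe sets left out Krt19, Krt8, Krt18, Upk1b and Wt1 (1369695_at).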

Other observations

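Other tissues' markers varied between arrays, singled out here after their values were seen. Scgb1a1, a secretory protein of airway club cells, read 10.16 on congenic array 2 and 9.14 on Dahl S array 3, against 5.02 to 5.41 on the other 4 arrays, and the surfactant gene Sftpc read 7.21 on congenic array 2 against 4.84 to 5.20. Ucp1, the uncoupling protein of brown fat, read 8.83, 10.09 and 11.44 in Dahl S and 9.45, 10.92 and 9.66 in congenic hearts. Dahl S array 3 and congenic array 2 were the highest pair for 8 of 11 adipocyte markers, and for 7.75% of all probe sets. The B cell genes Ms4a1 and Cd79b were high on Dahl S array 3 (7.15 and 8.27) and not on congenic array 1 (4.61 and 6.83).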
